A study of Rattus norvegicus with 20 samples.

Results

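The 10 genes described here were given as a set of TGF-beta, activin and BMP signals, and their rows were taken by symbol from the table of gene counts, where 10 of 10 were found among 17337 symbols. They are the ligands Tgfb1, Tgfb2, Tgfb3, Inhba, Bmp2 and Bmp4, the receptors Tgfbr1 and Tgfbr2, and the target genes Smad7 and Id1. The counts came from rat alveolar epithelial cells in culture, sequenced from the 3' ends of their polyadenylated RNA, in 20 libraries. Type II pneumocytes of Sprague-Dawley rats were grown for 4 days on silastic membranes coated with fibronectin, on which they turn into monolayers of type I-like cells. Group NS was left unstretched in 0.01% DMSO for 24 h. Group S was kept in the same vehicle for 18 h and then stretched cyclically for 6 h at 15 cycles per min, with a 25% change in surface area. NS_PI and S_PI were treated in the same way with 1 µM GSK2606414, an inhibitor of PERK, a kinase of the endoplasmic reticulum that is activated by unfolded proteins. The labels state no DMSO content for the inhibitor groups, and for NS_PI they name both 18 h and 24 h of inhibitor. Each group had 5 libraries, each from 4 pooled monolayers of 1 animal, and libraries with the same replicate number were treated as coming from the same animal. Age and sex of the animals were not given in the sources used here.

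Proteins of the TGF-beta superfamily are secreted as dimers cut from larger precursors, and TGF-betas are stored in the matrix in a latent form. A ligand joins type II and type I receptor kinases, which phosphorylate Smad proteins that enter the nucleus with Smad4. TGF-betas and activins act mainly through Smad2 and Smad3, and BMPs through Smad1, Smad5 and Smad9. In the lung TGF-beta is known for its part in epithelial repair and fibrosis, and its release from the latent form by integrins under tension has been described.

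Libraries held 999209 to 3131541 counts in genes. Values are given in CPM, counts scaled to library size with TMM factors, and 3 counts, used as the detection floor, equalled 1.07 to 3.05 CPM. The kit gives 1 fragment per transcript, so CPM was not divided by transcript length. A transcript end outside the annotated gene is not counted. Of the alignment records, 16.2 to 24.5% were assigned to no annotated feature, and where these lay was not given. Of 11 type I markers, 9 passed the filter on low counts, among them Pdpn at a mean of 1827 CPM and Ager at 499.7 CPM over all libraries, while Aqp5 had at most 36 counts and Rtkn2 at most 3. Genes listed as markers of other cells were also present: Lyz2 of the macrophage list had a mean of 4920 CPM and Col1a1 of the fibroblast list one of 5490 CPM. These were the highest means of their lists. Of 13 macrophage and leukocyte markers 10 passed the filter, and of 11 fibroblast and smooth muscle markers 7 did. Some others were near or at 0: Marco and Thy1 had at most 1 count, Cd52 had 0 and Col1a2 had at most 7. Of 8 endothelial markers 0 passed the filter, and Cdh5 and Cldn5 were at 0 in every library. In bulk RNA such as this, fewer cells of a type and less RNA per cell cannot be told apart.

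Promoter sequences of 9 of the 10 genes were found in a RefSeq table of the build GRCr8, from 250 bases before to 50 bases after each gene's start. Those of Inhba, Tgfb1, Smad7 and Id1, which were called in S vs NS, are printed here 5' to 3' on the strand of the gene, because these genes moved together or in opposite directions in the same libraries. The submitters' processing notes name another build, rn6. Capitals mark 3 motifs. CAGAC is known as a Smad box. The letters GGCGCC form an element described for the Smads of the BMP branch. A TATA box was read as TATAAA.
Inhba (chr17:53804459-53804758, minus strand): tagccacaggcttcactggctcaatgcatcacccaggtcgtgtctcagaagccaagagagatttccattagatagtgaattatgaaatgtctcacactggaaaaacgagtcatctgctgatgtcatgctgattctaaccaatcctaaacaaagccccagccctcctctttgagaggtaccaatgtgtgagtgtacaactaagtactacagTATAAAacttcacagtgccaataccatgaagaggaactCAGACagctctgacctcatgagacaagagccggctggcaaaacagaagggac
Tgfb1 (chr1:90324062-90324361, plus strand): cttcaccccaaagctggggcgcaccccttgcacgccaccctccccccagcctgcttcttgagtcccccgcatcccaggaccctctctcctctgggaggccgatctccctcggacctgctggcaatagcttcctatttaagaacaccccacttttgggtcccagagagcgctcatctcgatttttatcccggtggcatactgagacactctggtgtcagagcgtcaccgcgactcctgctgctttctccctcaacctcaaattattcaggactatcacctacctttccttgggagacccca
Smad7 (chr18:71263258-71263557, plus strand): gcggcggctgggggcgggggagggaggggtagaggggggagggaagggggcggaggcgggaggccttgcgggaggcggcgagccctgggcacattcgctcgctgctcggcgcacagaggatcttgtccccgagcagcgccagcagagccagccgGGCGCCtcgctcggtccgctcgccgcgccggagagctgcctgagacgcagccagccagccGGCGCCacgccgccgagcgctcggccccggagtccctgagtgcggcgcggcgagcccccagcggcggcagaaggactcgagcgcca
Id1 (chr3:161671314-161671613, plus strand): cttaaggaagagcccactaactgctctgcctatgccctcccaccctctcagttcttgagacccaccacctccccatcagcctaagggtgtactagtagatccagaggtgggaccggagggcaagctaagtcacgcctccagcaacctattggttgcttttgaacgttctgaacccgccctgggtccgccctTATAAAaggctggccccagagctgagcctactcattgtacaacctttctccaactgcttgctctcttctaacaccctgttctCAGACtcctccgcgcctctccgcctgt
Both strands were searched for these motifs and for TGANTCA (an AP-1 site), and the matches found did not overlap each other. The window of Inhba held TATAAA at position -40 and CAGAC at -2, counted at the leftmost base, with 1 as the first base of the gene. That of Id1 held TATAAA at -59 and CAGAC at 24, and that of Smad7 held GGCGCC at -96 and -36. In the window of Tgfb1 none of the 4 motifs was found. Over 33469 promoter windows of the same length, CAGAC was present in 50.1%, TATAAA in 14.2%, GGCGCC in 11% and TGANTCA in 7.33%. The share of G and C was 45.7% in Inhba, 55.7% in Id1, 57.7% in Tgfb1 and 77.7% in Smad7. These matches describe letters and show no binding.

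The effect of 6 h of stretch was read from S vs NS, and its effect in the presence of the PERK inhibitor from S_PI vs NS_PI. Inhba, Bmp2 and Tgfb1 rose and Id1 fell in both comparisons. Smad7 rose in S vs NS, and Tgfb2 and Bmp4 fell in S_PI vs NS_PI. Of the 10 members, 8 passed the filter and were tested with the edgeR quasi-likelihood test, with the animal as a block and p-values adjusted over 8320 genes. In S vs NS 4 rose and 1 fell, where 24.9% of all tested genes were called (12.5% up and 12.4% down). In S_PI vs NS_PI 3 rose and 3 fell, where 30.5% were called (15.2% up and 15.3% down). The split of all genes depended on the scaling: with only library sizes 722 rose and 1425 fell in S vs NS and 957 rose and 1677 fell in S_PI vs NS_PI, and with upper-quartile scaling 854 rose and 1233 fell, and 1030 rose and 1612 fell. The members then split into 3 up and 2 down in S vs NS with only library sizes and 4 up and 2 down with upper-quartile scaling, and stayed at 3 and 3 in S_PI vs NS_PI with both. Without the animal block, the calls of Inhba, Smad7 and Id1 in S vs NS were lost (adjusted p = 0.109, 0.0545 and 0.214), as were those of Tgfb1, Tgfb2, Bmp4 and Id1 in S_PI vs NS_PI (0.159, 0.146, 0.163 and 0.133). The 2 receptors had too few counts to be tested.

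**Figure D1:**
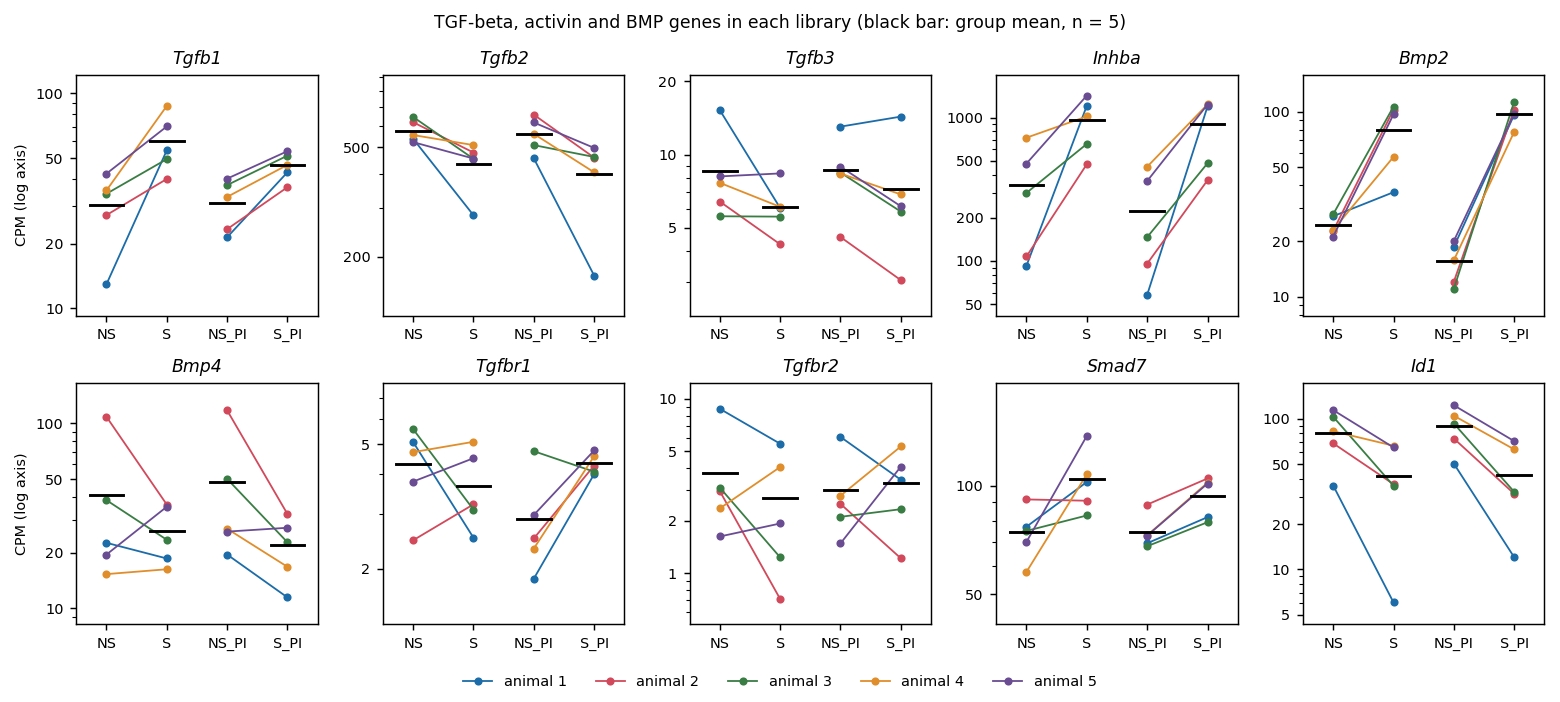
CPM of the 10 genes in each of the 20 libraries on log axes, each with its own range. Lines join the unstretched and stretched library of 1 animal within vehicle (NS, S) and within inhibitor (NS_PI, S_PI), and black bars are group means of 5 libraries. Bmp2 lines rise in every animal, Id1 lines fall in every animal, and Inhba starts at 92.8 CPM in animal 1 and at 723 CPM in animal 4 without stretch.

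Inhba (ENSRNOG00000014320) encodes the beta A chain that forms activin A. In NS it stood at 92.8, 108, 298, 723 and 478 CPM in animals 1 to 5, and in S at 1209, 473, 654, 1018 and 1424 CPM. Every animal was higher with stretch, but the groups overlapped, since the unstretched library of animal 4 lay above the stretched ones of animals 2 and 3. Inhba rose 3.35-fold, with a log2 fold change of 1.74 ± 0.35 (SE, n = 5 animals; edgeR adjusted p = 0.00145). With inhibitor it stood at 58.2, 95.9, 147, 454 and 361 CPM without stretch and at 1195, 365, 480.0, 1234 and 1232 CPM with it. The change with inhibitor was 2.19 ± 0.36 (adjusted p = 0.000144), again with overlap. The animals differed in the size of the change: the log2 difference was 3.69 in animal 1 and 0.49 in animal 4 without inhibitor, and 4.33 and 1.44 with it.

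Bmp2 (ENSRNOG00000021276), a BMP ligand, was the member whose stretched libraries all lay above the unstretched ones in both comparisons. Without inhibitor it stood at 27.2, 22.7, 27.9, 23.0 and 21.2 CPM in unstretched cells and at 36.7, 102, 106, 56.9 and 96.6 CPM in stretched cells. Animals 1 and 4 had the lowest stretched values. It rose 3.19-fold, by 1.67 ± 0.23 on the log2 scale (edgeR adjusted p = 4.68e-05). With inhibitor it stood at 18.6, 12.1, 11.1, 15.8 and 20.1 CPM without stretch and at 96.3, 102, 113, 77.8 and 97.5 CPM with it, and rose 6.23-fold (2.64 ± 0.24, adjusted p = 2.76e-07). Higher values without overlap were found in 3.45% of all tested genes in S vs NS and in 7.16% in S_PI vs NS_PI. Of the 8 tested members Bmp2 was the only one that was higher without overlap, in both.

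Tgfb1 (ENSRNOG00000020652) encodes TGF-beta 1. It stood at 12.9, 27.1, 34.1, 35.3 and 42.3 CPM in NS and at 54.3, 40.0, 49.4, 87.5 and 70.2 CPM in S. The stretched library was higher in 5 of 5 animals, and the groups overlapped only through animal 2, whose stretched value lay below the unstretched one of animal 5. The change was 1.00 ± 0.19 (2.01-fold, adjusted p = 0.000857). With inhibitor it stood at 21.4, 23.3, 37.4, 33.0 and 40.1 CPM without stretch and at 43.0, 36.6, 51.3, 46.5 and 53.9 CPM with it, where the groups overlapped again. The means were 31.1 ± 8.35 and 46.3 ± 6.84 CPM (SD, n = 5), with a change of 0.61 ± 0.19 (edgeR adjusted p = 0.0204), also in 5 of 5 animals. This call was lost without animal 2 (adjusted p = 0.0550; the alternatives ranged from 0.0135 to 0.159).

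Tgfb2 (ENSRNOG00000002418), the gene of TGF-beta 2, went the other way. In NS it stood at 537, 617, 645, 554 and 522 CPM and in S at 283, 479, 454, 509 and 455 CPM, so that the groups did not overlap, as in 3.89% of all tested genes in this direction. The change was -0.44 ± 0.16 with an edgeR adjusted p = 0.0528, which passed with upper-quartile scaling (0.0305), when only library sizes were used for scaling (0.0221) and without the filter (0.0482; the alternatives ranged from 0.0221 to 0.275). With inhibitor it stood at 456, 657, 509, 560 and 616 CPM without stretch and at 171, 459, 461, 406 and 498 CPM with it. Tgfb2 fell there by 0.54 ± 0.16 on the log2 scale (adjusted p = 0.0158), from 560 ± 80.5 to 399 ± 132 CPM, in 5 of 5 animals, with overlap; of the members 0 were lower without overlap in S_PI vs NS_PI, against 6.6% of all tested genes. The lowest stretched library was that of animal 1 in both cases, at 283 and 171 CPM. Tgfb3, the gene of TGF-beta 3, had 5 to 33 counts per library. Its means in NS and S were 8.60 ± 3.84 and 6.07 ± 1.48 CPM, those in NS_PI and S_PI 8.66 ± 3.00 and 7.24 ± 4.22 CPM, and neither stretch change passed (adjusted p = 0.200 and 0.477 by edgeR).

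Of the counts of the 3 TGF-beta genes, Tgfb2 made up 93.6 ± 1.61% in NS and 86.6 ± 3.70% in S (SD, n = 5), and with inhibitor 93.3 ± 1.57% in NS_PI and 86.7 ± 6.76% in S_PI. The share of Tgfb1 was 4.95 ± 1.91% in NS and 12.2 ± 3.40% in S, and with inhibitor 5.21 ± 1.33% in NS_PI and 11.2 ± 4.43% in S_PI. The share of Tgfb1 was higher with stretch in 5 of 5 animals in both comparisons, by 7.22 ± 4.00 and 5.97 ± 4.79 percentage points. An exact paired permutation test, two-sided, gave 0.0625 for each, which 5 animals cannot go below, or 0.0909 adjusted over the 16 tests of such shares. These shares were chosen after their values were seen. Tgfb1 rose and Tgfb2, most of the sum, fell in every animal of both comparisons, so the share of Tgfb1 rose with them. Its test therefore adds no support. The shares of Tgfb1 and Tgfb2 nearly complete each other, so their tests among the 16 are not independent.

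Bmp4 (ENSRNOG00000009694), a BMP ligand close to Bmp2, varied widely between animals. It stood at 22.6, 109, 38.5, 15.3 and 19.5 CPM in NS and at 18.6, 36.4, 23.5, 16.3 and 35.4 CPM in S. With inhibitor it stood at 19.5, 118, 50.1, 26.9 and 26.0 CPM without stretch and at 11.5, 32.3, 22.7, 16.8 and 27.3 CPM with it. Animal 2 was far above the others in both unstretched groups and close to them with stretch, and the groups overlapped in both comparisons. In S vs NS the change was -0.43 ± 0.28 (edgeR adjusted p = 0.277), lower in 3 of 5 animals. With inhibitor Bmp4 fell by 0.96 ± 0.28 on the log2 scale (adjusted p = 0.0140), lower in 4 of 5 animals, and the call did not survive leaving out animal 2 (0.0736) or animal 3 (0.0744; the alternatives ranged from 0.00234 to 0.163).

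Id1 (ENSRNOG00000021750), a target of BMP Smads that binds and blocks helix-loop-helix transcription factors, fell in both comparisons. It stood at 36.0, 68.6, 103, 82.5 and 114 CPM in NS and at 6.03, 36.8, 35.8, 66.1 and 64.4 CPM in S. Every animal was lower with stretch, and the groups overlapped only through the unstretched library of animal 1. With inhibitor it stood at 50.3, 73.8, 92.8, 105 and 123 CPM without stretch and at 12.03, 31.7, 32.7, 62.5 and 70.9 CPM with it, again lower in every animal and with overlap. Id1 was 2.12-fold lower (-1.09 ± 0.22, edgeR adjusted p = 0.00154) in S and 2.33-fold lower (-1.22 ± 0.22, adjusted p = 0.000376) in S_PI, where the means were 88.8 ± 27.9 without and 42.0 ± 24.2 CPM with stretch (SD). Bmp2, a ligand of the branch that induces Id1, had opposite signs to it in every animal of both comparisons.

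Smad7 (ENSRNOG00000018359) encodes an inhibitory Smad that TGF-beta induces and that blocks its receptor. It stood at 77.1, 91.8, 75.0, 57.7 and 70.0 CPM in NS and at 103, 91.0, 82.8, 108 and 138 CPM in S. The stretched library was higher in 4 of 5 animals, and animal 2 stayed nearly level. The rise was 0.48 ± 0.14 (1.39-fold, edgeR adjusted p = 0.0194). It was lost without animal 4 (0.102) or 5 (0.111), with only the compared groups (0.103) and when only library sizes were used for scaling (0.0892; the alternatives ranged from 0.00851 to 0.111). With inhibitor it stood at 69.3, 88.8, 68.0, 72.9 and 72.8 CPM without stretch and at 81.9, 105, 79.3, 102 and 102 CPM with it, with overlap. The change was 0.33 ± 0.14 (adjusted p = 0.0855), higher in 5 of 5 animals.

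The receptors were close to the floor. Tgfbr1, the type I receptor of TGF-beta, had 4 to 11 counts per library and means of 4.33 ± 1.23 CPM in NS and 3.68 ± 1.07 in S, and of 2.88 ± 1.12 in NS_PI and 4.34 ± 0.324 in S_PI. The authors' deposited table lists it under more than 1 Ensembl identifier. Tgfbr2, the type II receptor, had 2 to 19 counts and means of 3.76 ± 2.86, 2.70 ± 2.04, 2.99 ± 1.78 and 3.28 ± 1.59 CPM in the same order. Stretched and unstretched libraries overlapped for both. Without the filter the change in S vs NS was -0.26 ± 0.40 for Tgfbr1 and -0.60 ± 0.47 for Tgfbr2 (edgeR adjusted p = 0.732 and 0.482), and in S_PI vs NS_PI it was 0.58 ± 0.41 and 0.09 ± 0.48 (0.390 and 0.970), so a difference was not detectable at this depth.

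**Figure D2:**
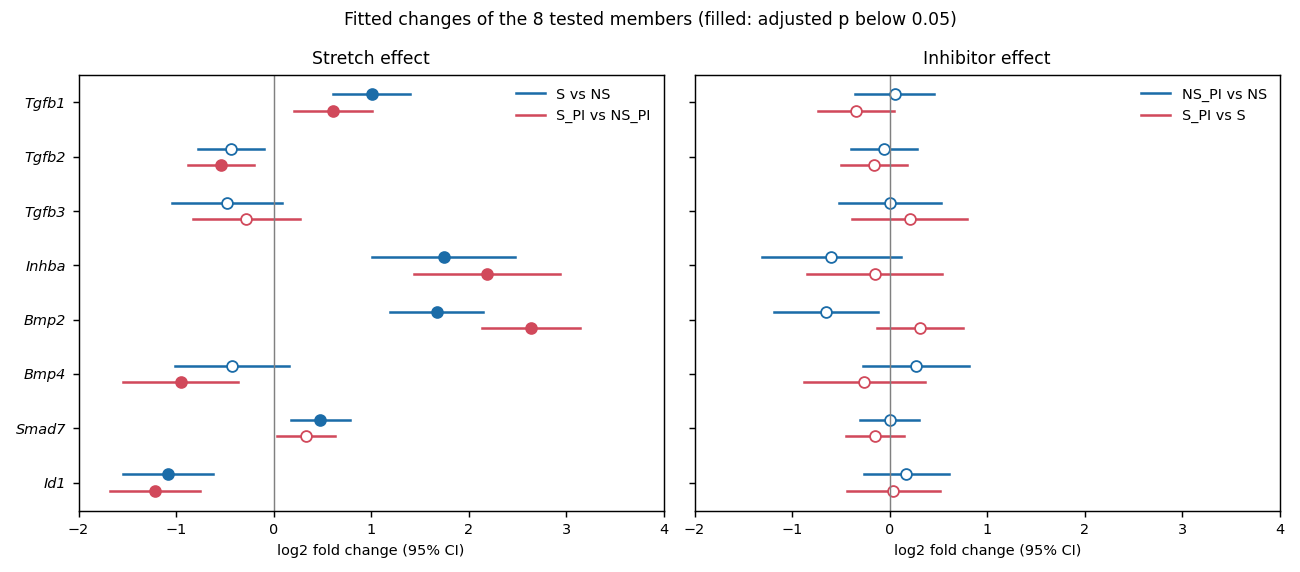
Fitted log2 fold changes of the 8 tested genes with 95% confidence intervals, for stretch on the left and for the inhibitor on the right, each without and with the other factor. Filled points have an adjusted p below 0.05. Bmp2 lies at 1.67 and 2.64 for stretch, and no inhibitor change is filled.

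NS_PI vs NS and S_PI vs S asked what the PERK inhibitor changes in unstretched and in stretched cells, and the interaction asked whether the stretch effect differs with it. Of the 8 tested members 0 were called in any of the 3, where 0.0% of all tested genes were called by edgeR. DESeq2 called 5, 0 and 0 genes in them and 0 members. At an unadjusted p under 0.05 edgeR gave 455, 340 and 345 of 8320 genes (5.47, 4.09 and 4.15%) and 1, 0 and 1 member. That member was Bmp2 each time. Its level in NS_PI, 15.5 ± 3.93 CPM, lay below all NS libraries, at 24.4 ± 2.99 CPM, as in 0.553% of all tested genes. The change was -0.66 ± 0.26 (adjusted p = 0.868), lower in 5 of 5 animals. In S_PI vs S no member was separated, as in 0.144% of all tested genes that were higher without overlap and 0.0721% that were lower; higher separation in NS_PI vs NS was found in 0.156%. The stretch change of Bmp2 was larger with inhibitor than without it in 5 of 5 animals, by 0.97 ± 0.33 (95% confidence interval 0.28 to 1.66, unadjusted p = 0.00812, adjusted p = 0.984). This difference did not pass and shares the NS and NS_PI libraries with the one before. Inhba had a change of -0.60 ± 0.34 in NS_PI vs NS (adjusted p = 0.922), lower in 5 of 5 animals. It passed with only the compared groups (0.0440; up to 1.0 over its alternatives). The confidence intervals of the other interaction terms ran from -0.96 to 0.17 for Tgfb1, from -0.58 to 0.37 for Tgfb2, from -0.58 to 0.98 for Tgfb3, from -0.55 to 1.44 for Inhba, from -1.35 to 0.30 for Bmp4 (lower in 5 of 5 animals), from -0.57 to 0.27 for Smad7 and from -0.78 to 0.52 for Id1.

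The genes differed in how much of their variance went with stretch and how much with the animal. Stretch took 84.7% of the variance of log2 CPM in Bmp2, 52.4% in Inhba, 49.9% in Smad7, 47.8% in Tgfb1, 34.8% in Id1, 33.6% in Tgfb2, 12.9% in Bmp4 and 12.6% in Tgfb3, against a median of 13.1% over all tested genes. The animal took 62.5% in Bmp4, 63.6% in Tgfb3 and 54.1% in Id1, but 1.41% in Bmp2 (median of all genes 37.5%). Differences of the stretch effect between animals took 19.6% in Smad7, 18.8% in Bmp4, 15.9% in Tgfb2, 14.3% in Inhba, 10.01% in Tgfb1, 8.07% in Id1, 4.26% in Bmp2 and 1.85% in Tgfb3 (median of all genes 13.5%). The inhibitor took at most 1.97%, in Tgfb2.

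**Figure D3:**
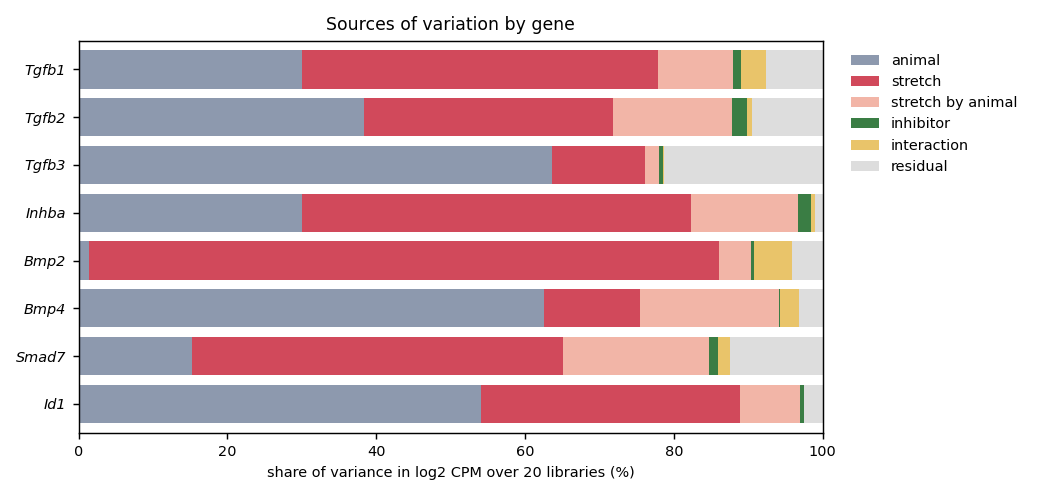
Share of the variance of log2 CPM over 20 libraries, in percent, that went with the animal, stretch, a stretch effect that differs between animals, the inhibitor, the interaction of stretch and inhibitor, and the rest, for the 8 tested genes. Stretch takes 84.7% in Bmp2 and the animal 62.5% in Bmp4.

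Markers of the epithelium and of some other cell types moved with stretch in the same libraries. Beside the marker counts below, 12.5% of all tested genes rose and 12.4% fell in S vs NS. In S_PI vs NS_PI 15.2% rose and 15.3% fell. The summed level of 5 general epithelial markers (Epcam, Cdh1, Krt8, Krt18 and Nkx2-1) ranged from 9892 to 10754 CPM in NS and from 3299 to 12122 CPM in S, and from 7201 to 12273 CPM in NS_PI and from 2446 to 10760.0 CPM in S_PI. Of the 5, Krt8 fell in S vs NS, and Epcam, Krt8 and Krt18 fell in S_PI vs NS_PI. In animals 1, 4 and 5 the sum stood at 9892, 10754 and 10481 CPM in NS and at 3299, 4461 and 4824 CPM in S. In animals 2 and 3 it stood at 9942 and 9927 CPM in NS and at 12122 and 9732 CPM in S. Log2 differences of S from NS are given for animals 1, 4 and 5, then for animals 2 and 3. Smad7 had 0.41, 0.89 and 0.97, then -0.01 and 0.14. Tgfb1 had 1.98, 1.28 and 0.72, then 0.54 and 0.52. Inhba had 3.69, 0.49 and 1.57, then 2.12 and 1.13. Bmp2 had 0.42, 1.27 and 2.13, then 2.12 and 1.89. Id1 had -2.38, -0.31 and -0.81, then -0.88 and -1.49. Tgfb2 had -0.92, -0.12 and -0.20, then -0.37 and -0.50. Bmp4 had -0.27, 0.08 and 0.82, then -1.55 and -0.69. Tgfb3 had -1.19, -0.28 and 0.04, then -0.48 and -0.0042. Of the 9 tested type I markers, 4 fell in S vs NS, and 6 fell and 1 rose in S_PI vs NS_PI. The summed level of the type I list ranged from 1998 to 8013 CPM in NS and from 1231 to 6922 CPM in S, with inhibitor from 2093 to 7698 CPM in NS_PI and from 1134 to 6398 CPM in S_PI. Of 13 macrophage and leukocyte markers 10 were tested, 5 rose in each stretch comparison and 0 fell. Their sum ranged from 1584 to 10495 CPM in NS and from 2142 to 13871 CPM in S. With inhibitor it ranged from 1597 to 9975 CPM in NS_PI and from 2600.1 to 12978 CPM in S_PI, and Cd52 was at 0. This sum followed mostly Lyz2, with a mean of 4920 CPM against 718 CPM for Laptm5. Lyz2 itself was not called, with 0.15 and 0.36 (edgeR adjusted p = 0.475 and 0.07). Of 11 fibroblast and smooth muscle markers 7 were tested, Col1a1 rose in both comparisons, Dcn rose and Pdgfrb fell in S_PI vs NS_PI, and Thy1 had at most 1 count. Their sum ranged from 3240 to 7543 CPM in NS and from 3970 to 12469 CPM in S. With inhibitor it ranged from 3237 to 10715 CPM in NS_PI and from 3992 to 14335 CPM in S_PI. This sum followed mostly Col1a1, with a mean of 5490 CPM against 1062 CPM for Acta2, which was not called. Of 4 mesothelial markers 2 were tested, and Msln rose in S vs NS. Wt1, the other, had the opposite sign, with -0.58 in S vs NS and -0.37 in S_PI vs NS_PI (edgeR adjusted p = 0.0547 and 0.197). Msln had a mean of 218 CPM over all libraries and Wt1 one of 32.6 CPM, so the sum of both followed mostly Msln. This sum stood at 250.1 CPM in NS and 881 CPM in S in animal 1, while the other S libraries lay between 142 and 257 CPM. With inhibitor it ranged from 129.6 to 289.7 CPM in NS_PI and from 148 to 477 CPM in S_PI. Of 8 tested type II markers and 2 tested airway markers 0 were called in either stretch comparison by edgeR. The part of these cells in the changes of the 10 genes was not tested.

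Among 117 other genes of the pathway, listed by role, 65 were tested. In S vs NS 12 rose and 8 fell (30.8% called, against 24.9% of all tested genes), and in S_PI vs NS_PI 15 rose and 9 fell (36.9%, against 30.5%). When only library sizes were used, 10 rose and 12 fell in S vs NS and 12 rose and 12 fell in S_PI vs NS_PI. With upper-quartile scaling 12 rose and 10 fell, and 13 rose and 12 fell. The lists were made with earlier results of these data known. For the counts by role below, the shares of all tested genes were 12.5% up and 12.4% down in S vs NS. They were 15.2% up and 15.3% down in S_PI vs NS_PI.

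Of 26 other ligands, 3 were tested, and Inhbb and Bmp3 fell in both comparisons. Inhbb, which encodes the beta B chain of activin B, moved against Inhba. It had means of 56.2 ± 8.58 CPM in NS and 27.7 ± 12.4 in S (-1.12 ± 0.20, edgeR adjusted p = 0.000527). With inhibitor the means were 57.1 ± 14.2 in NS_PI and 22.0 ± 8.12 in S_PI (-1.39 ± 0.21, adjusted p = 5.31e-05). The groups did not overlap in either comparison, as in 3.89% and 6.6% of all tested genes in this direction. Of the summed counts of both chains, Inhba made up 79.6 ± 12.6% in NS and 96.9 ± 1.36% in S, and 73.2 ± 13.7% in NS_PI and 96.7 ± 2.72% in S_PI. This share was higher with stretch in 5 of 5 animals in both comparisons, as it had to be, since Inhba rose and Inhbb fell in every animal. An exact paired permutation test, two-sided, gave 0.0625 for each, or 0.0909 adjusted over the 16 tests. With 5 animals it cannot go below 0.0625, and the share was chosen after its values were seen, so it adds no support. Bmp3 had changes of -0.82 ± 0.30 and -1.07 ± 0.29. The first was lost with DESeq2 (adjusted p = 0.0510), with DESeq2's size factors in edgeR (0.0507), with only the compared groups (0.116) and without animal 1, 2 or 3 (0.149, 0.174 and 0.154; the alternatives ranged from 0.0328 to 0.325).

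Of 12 other receptors, 5 were tested and 0 were called in either stretch comparison, by edgeR. They were Acvr2a, a receptor of activins, with 0.56 ± 0.23 and 0.63 ± 0.24 (adjusted p = 0.0823 and 0.0508), and Amhr2, Bmpr1a, Bmpr2 and Eng. Of 7 Smads that carry signals and their anchor protein, 6 were tested and 2 rose in both comparisons. Smad2, which carries the signals of TGF-beta and activin, rose by 0.57 ± 0.12 without and 0.41 ± 0.12 with inhibitor. Smad4, the partner of both branches, rose by 0.50 ± 0.12 and 0.44 ± 0.12. Each of these changes was seen in 5 of 5 animals, and that of Smad4 without inhibitor narrowly missed with only the compared groups (0.0504). Without animal 3 the calls with inhibitor were lost in both (adjusted p = 0.0606 for Smad2 and 0.0539 for Smad4), as they were for Smad2 without animal 4 (0.0655) and for Smad4 without animal 5 (0.0581; up to 0.0655 and 0.159 over their alternatives).

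Of 13 tested genes of latent ligand storage and activation, 2 fell and 0 rose in S vs NS, and 4 fell and 1 rose in S_PI vs NS_PI. The shares called were 15.4% and 38.5%, against 24.9% and 30.5% of all tested genes. Lrrc32, which holds latent TGF-beta on the cell surface, fell by 1.09 ± 0.23 and 1.59 ± 0.23 on the log2 scale, in 5 of 5 animals each time. Its level was 17.1 ± 6.69 CPM in NS and 8.15 ± 4.54 in S, and with inhibitor 21.5 ± 8.62 in NS_PI and 7.26 ± 3.49 in S_PI. Nrros, a relative of Lrrc32 that does so on myeloid cells, fell by 0.67 ± 0.20 and 1.24 ± 0.21. Its fall without inhibitor was lost without animal 3 (0.41, adjusted p = 0.208), without animal 4 (0.0513) and with only the compared groups (0.103; the alternatives ranged from 0.00895 to 0.301). Ltbp3, a latent TGF-beta binding protein, and Pcsk6, a proprotein convertase, fell with inhibitor by 0.54 ± 0.16 and 0.53 ± 0.18. The first of these calls was lost without animal 4 (adjusted p = 0.0671), and the second without animal 2, 3, 4 or 5 (0.0686 to 0.126). The rise with inhibitor was that of Fbn1, fibrillin 1, with 0.65.

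Of 9 tested secreted antagonists, 2 rose and 1 fell in S vs NS and 3 rose in S_PI vs NS_PI. Fst encodes follistatin, which binds activins, and rose in S vs NS by 1.45 ± 0.40 (edgeR adjusted p = 0.0116), from 14.0 ± 4.68 to 46.7 ± 53.5 CPM. The stretched libraries ranged from 15.3 to 141 CPM, and without animal 1 the change was 0.70 (adjusted p = 0.0807; the alternatives ranged from 0.000525 to 0.0807). Nog, encoding noggin, which binds BMPs, fell in S vs NS by 1.19 ± 0.33, from 23.8 ± 11.3 to 10.3 ± 5.29 CPM. It did not pass when animal 2 was left out (0.0762; the alternatives ranged from 0.00187 to 0.101). Fstl1, a secreted relative of follistatin, rose in S vs NS by 0.59 ± 0.19, which without animal 1 was 0.32 (adjusted p = 0.0575; it also missed without animal 4 or 5, and ranged from 0.0108 to 0.183). With inhibitor Dcn, decorin, rose by 0.98 ± 0.28 (0.56 without animal 1, adjusted p = 0.0819), and the BMP antagonist Grem1 rose by 0.72 ± 0.25 (adjusted p = 0.0326).

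Of 7 tested inhibitors inside the cell, 4 rose in S vs NS and 3 in S_PI vs NS_PI, and 0 fell. The corepressors Tgif1 and Tgif2 rose by 0.69 ± 0.16 and 0.86 ± 0.21 without inhibitor and by 0.59 ± 0.16 and 0.78 ± 0.21 with it, each in 5 of 5 animals. Nedd4l, a ubiquitin ligase that acts on Smads, rose by 0.91 ± 0.28 and 1.01 ± 0.28. Without inhibitor its call was lost without animal 2, 3 or 4 (adjusted p = 0.0881, 0.128 and 0.0686), and with inhibitor without animal 2 or 3 (0.0895 and 0.0665). The call of Tgif2 with inhibitor was lost without animal 2 (0.0691). Pmepa1, a target and inhibitor of TGF-beta signalling, rose in S vs NS by 0.69 ± 0.17, from 128 to 212 CPM. With inhibitor its change was 0.26 ± 0.17 (edgeR adjusted p = 0.245). The difference between both changes was not called.

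Response genes did not move in 1 direction. Of 19 tested TGF-beta response genes, 3 rose and 3 fell in S vs NS and 5 rose and 3 fell in S_PI vs NS_PI, with median log2 changes of 0.04 and 0.04 (all tested genes -0.01 and -0.02). Cdkn2b, a cell cycle inhibitor, fell by 1.19 ± 0.15 and 1.37 ± 0.15, from 920 ± 373 to 421 ± 242 CPM without inhibitor. Tagln, an actin-binding protein, fell by 1.03 ± 0.15 and 0.79 ± 0.15, and Nedd9, a scaffold protein, fell by 0.53 ± 0.12 and 0.56 ± 0.12 (the first with adjusted p = 0.0535 with only the compared groups). Timp1, an inhibitor of metalloproteinases, rose by 0.75 ± 0.15 and 0.57 ± 0.15. The other genes that rose were Snai1 (0.83 and 0.84) and Col1a1 (0.61 and 0.64) in both comparisons, and with inhibitor Vim (0.81) and Cdh2 (0.80). Ctgf, often read as a marker of TGF-beta activity, had a change of -0.38 ± 0.20 in S vs NS (adjusted p = 0.186), and was named after its values were seen. Col1a1, Dcn and Acta2 of these lists are also among the fibroblast markers above.

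Of 7 BMP response genes besides Id1, 3 were tested. Id2 rose by 0.72 ± 0.20 and 0.69 ± 0.20 in S vs NS and S_PI vs NS_PI. The call without inhibitor was lost without animal 2, 3, 4 or 5 (adjusted p = 0.0528 to 0.106) and the call with inhibitor without animal 3 or 4 (0.0502 and 0.0556). Id3 had changes of -0.52 ± 0.31 and -0.74 ± 0.31 (adjusted p = 0.233 and 0.0763), and Id4 was not called.

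**Figure D4:**
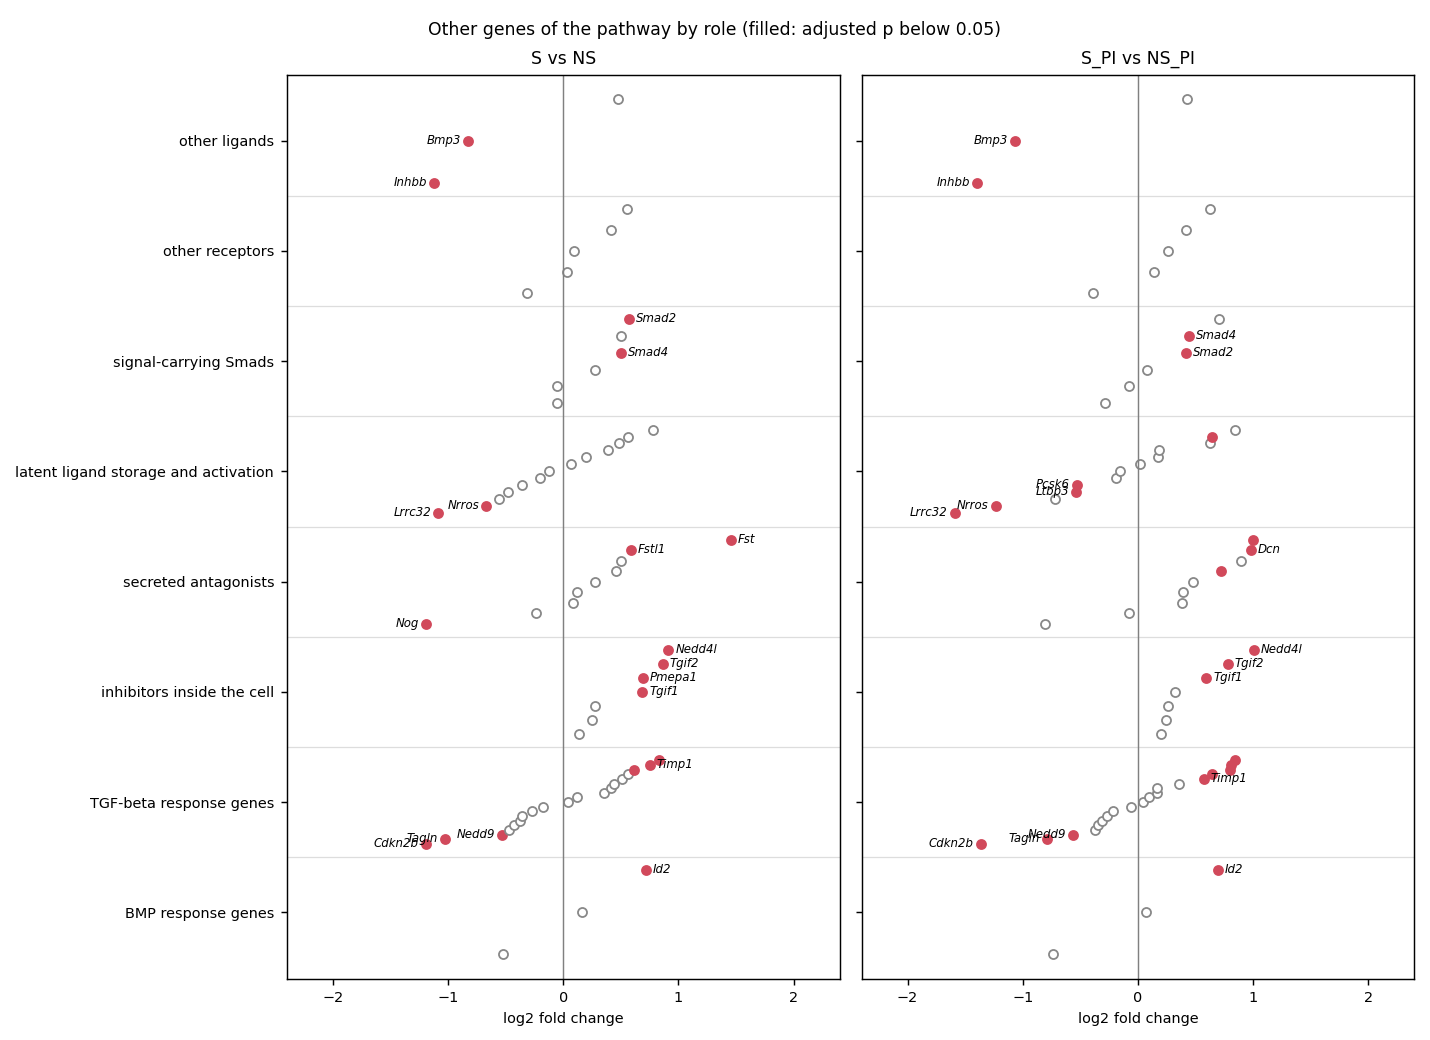
Log2 fold changes of 65 tested genes of the pathway outside the 10 members, by role, for stretch without inhibitor (left) and with it (right). Each point is 1 gene, filled where the adjusted p is below 0.05. Inhbb lies at -1.12 and -1.39, Tgif2 at 0.86 and 0.78, and Fst at 1.45 in the left panel.

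The authors' deposited table of fold changes does not name its groups. Its log2 values had the opposite sign to S vs NS in 8 of 8 tested members and in 97.6% of 8176 matched genes, so the sign was read as reversed. In the authors' deposited table with its sign reversed, Bmp2 stood at 1.46, Inhba at 1.15, Tgfb1 at 0.92 and Id1 at -0.95, with adjusted p = 6.56e-07, 0.0180, 0.00345 and 0.00294. The authors' deposited table gave Smad7 an adjusted p of 0.124 and Tgfb2 one of 0.151.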

How the data were processed

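Libraries were QuantSeq 3' libraries read as 75 bp single reads, per the labels. The submitters' processing notes name STAR, HTSeq, DESeq2 and the build rn6; their versions, the annotation and the strand setting were not given in the sources used here. Raw counts per gene symbol were deposited by the authors. Their DESeq2 table, named as controlling for rat, holds, per the file headers, a mean of normalized counts (a signal), a log2 fold change with its error, a Wald score, a p-value and an adjusted p-value. HTSeq summary entries (no feature 16.2 to 24.5%, not unique 35.5 to 57.7% of all entries) stayed out of library totals. Genes passing filterByExpr (8320 of 17337) were scaled by TMM and tested with edgeR 4.0.16 (glmQLFit; group and animal; 20 libraries, 12 residual degrees of freedom; R 4.3.3), with Benjamini-Hochberg adjustment and a threshold of 0.05. Errors of fold changes are standard errors, those of levels SDs. Plots and summaries used Python 3.11.15.

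Same-numbered libraries deviated together from their group means (r = 0.316 to 0.788 over 30 pairs), and 20 of 20 libraries correlated best with their own number. In simulated data for S vs NS (8154 genes tested, 100 genes changed at each size), 86.0% of changes of 1 and 100.0% of changes of 2 on the log2 scale were recovered, with 17 false calls. Changes were set only in genes above a minimum mean count. Each change was the same in every animal, and the spread depended only on the expression level. The data differ in these points, so the recovery is not the power for the genes reported here. Members and lists were chosen with earlier results of these data known. All 10 members are named, and up to 4 genes of each role list, those with the smallest p among the called; all other genes were named after their values were seen, as were the shares of ligand counts and the TATA motif chosen. Alternatives were other scalings, no or a stricter filter, DESeq2 1.42.0, no block, only the compared groups, and each animal left out. The detection floor covers counting error only.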

Additional observations from a re-analysis of the deposited data

Results flagged for a closer look

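In 7 of 40 groups of 5 libraries, 1 library lay far from the other 4, by a Dixon ratio above 0.71; chance flags about 1 group in 20. Animal 1 accounts for 5 of them. Its Tgfb2 stood at 283 CPM in S, with the other libraries at 454 to 509 CPM, and at 171 CPM in S_PI, with the others at 406 to 498 CPM. Its Tgfb3 stood at 15.2 CPM in NS, above 5.58 to 8.14 CPM in the others. Its Tgfbr2 stood at 8.77 CPM in NS, above 1.63 to 3.10 CPM, and at 6.05 CPM in NS_PI, above 1.49 to 2.79 CPM. Animal 2 accounts for the other 2. Its Bmp4 stood at 109 CPM in NS, above 15.3 to 38.5 CPM, and its Smad7 at 88.8 CPM in NS_PI, above 68.0 to 72.9 CPM.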

How the results depend on the processing

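Without the replicate block, fewer genes passed: 818 in S vs NS and 1229 in S_PI vs NS_PI, with 2 members in each (Tgfb1 and Bmp2, and Inhba and Bmp2) and 6 and 4 genes of the pathway lists. With only the compared groups, 1048 genes and 12 list genes passed in S vs NS, and 27 genes with 1 member, Inhba, in NS_PI vs NS. In that comparison DESeq2 called 5 genes and the unfiltered fit 4. Leaving out 1 animal gave 4 to 5 members and 1418 to 1784 genes in S vs NS, 4 to 6 members and 1839 to 2453 genes in S_PI vs NS_PI, and 0 to 3 genes in NS_PI vs NS. When only library sizes were used for scaling, the median change of all genes was -0.12 in both stretch comparisons. Of 1053 recomputed changes of single genes 944 kept direction and side of the threshold, 82 no longer passed, 13 newly passed and 14 changed sign. The sign changes lay in changes that did not pass. With 1 animal left out, Tgfb1 ranged from -0.0518 to 0.1331 in NS_PI vs NS, Tgfb2 ranged from -0.1141 to 0.012 in NS_PI vs NS, Tgfb3 ranged from -0.1115 to 0.1186 in NS_PI vs NS (without the replicate block -0.0064 and with only the compared groups -0.0015), Tgfb3 ranged from -0.1781 to 0.3679 in S_PI vs S, Tgfb3 ranged from -0.2844 to 0.3836 in the interaction, Smad7 ranged from -0.0675 to 0.0539 in NS_PI vs NS, Id1 ranged from -0.0613 to 0.1141 in S_PI vs S and Dcn ranged from -0.0646 to 0.3032 in S vs NS, as log2 changes. The interaction has no fit with only the compared groups. Counts of 2 to 33 limit Tgfb3, Tgfbr1 and Tgfbr2.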

Other observations

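Over the 20 libraries, after removing each animal's mean, the genes with the pattern most like each called member were as follows, as Pearson r of log2 CPM; the points share stretch, libraries and animals. Inhba was most like Tnfaip6 (0.98), Rgs2 (0.97) and Uap1 (0.97). Bmp2 was most like Vcpip1 (0.97), Mef2a (0.97) and Phf13 (0.97), and Tgfb1 most like Rab31 (0.95), Ppp1r18 (0.92) and Slc16a3 (0.92). Tgfb2 was most like Timp3 (0.96), an inhibitor of metalloproteinases, Osbpl1a (0.95) and Cab39 (0.94). Id1 was most like Mum1 (0.98), Chst14 (0.97) and Irf1 (0.97), an interferon-related transcription factor. Smad7 was most like Apbb1ip (0.93), Secisbp2l (0.89) and Atp2b1 (0.86), and Bmp4 most like Nupr1l (0.91), Mfap3 (0.91) and Gtse1 (0.90). Between members, the values farthest from 0 were -0.93 for Inhba with Id1, -0.84 for Inhba with Tgfb2 and 0.82 for Inhba with Tgfb1.

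Of the summed counts of Bmp2 and Bmp4, Bmp2 made up 45.2 ± 16.9% in NS and 74.6 ± 5.79% in S (SD, n = 5), and with inhibitor 31.3 ± 16.9% in NS_PI and 81.8 ± 5.16% in S_PI. The share was higher with stretch in 5 of 5 animals in both comparisons and lower with inhibitor in 5 of 5 animals without stretch. In stretched cells it was higher with inhibitor in 5 of 5 animals. The exact paired permutation test, two-sided, gave 0.0625 for each of these comparisons, which is the lower limit with 5 animals, and 0.0909 adjusted over 16 tests. This share was also chosen after its values were seen and restates the levels of Bmp2 and Bmp4, so its tests add no support. In S_PI vs S edgeR called 0 genes. The log2 differences of Bmp2 there were 1.36, 0.001, 0.09, 0.44 and 0.01 in animals 1 to 5.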
